A study of Mus musculus and Homo sapiens with 41 samples.

Results

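H2AK119ub was measured around the starts of 40 genes of NF-kB, TNF, Toll-like receptor (TLR) and NOD signalling, out of 21911 protein-coding mouse genes and 20007 protein-coding human genes. The genes were listed by name and not by any measured value: the NF-kB subunits, their IkB inhibitors, the IKK kinase, the TNF receptor, TLR and interleukin-1 receptor branches, the TAK1 kinase complex, the NOD receptors and inflammasome, and cytokines with the IL-6 receptor chains. Each gene was described by the number of bases covered by H2AK119ub peaks within 5 kb to each side of its annotated start, and the human genes were found by the same symbols in upper case, with IL6R standing for Il6ra. All 40 had a window in both species.

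The libraries came from CUT&Tag, in which an antibody directs a transposase to chromatin so that DNA around the bound site is cut and sequenced. H2AK119ub was profiled in 39 libraries, 3 for each of 13 groups, and BAP1 in 2 further libraries of WT mouse embryonic stem cells (mESCs). The study addressed how loss of TET2, and then depletion of MBD6 or NSUN2 in cells without TET2, alters this mark. The mESC groups were untransfected WT and Tet2 KO cells, WT and Tet2 KO cells given a control siRNA (siNC), and Tet2 KO cells given siMbd6 or siNsun2; all grew in 15% serum with LIF, 3 µM CHIR99021 and 1 µM PD0325901 and had been passaged off feeder cells. The haematopoietic stem and progenitor cells (HSPCs) were lineage-negative, KIT-positive bone marrow cells of C57BL/6 mice aged 6 to 8 weeks, WT or Tet2-/-, electroporated with a control shRNA (shNC), and a further group was Tet2-/- with shMbd6; they had been kept for 7 days with stem cell factor, IL-3, thrombopoietin and GM-CSF. K-562 is a human line from a chronic myeloid leukaemia in blast crisis, here as WT and TET2 KO cells with siNC and as TET2 KO cells with siMBD6 or siNSUN2. The KO mESCs and KO K-562 cells were lines obtained from other laboratories, and the number of clones behind each is not given in the sources used here. Every knockdown group also carried the TET2 deletion.

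Covered length over the whole genome ran from 9.66 to 17.0 Mb per library in untransfected mESCs and WT siNC mESCs, from 1.82 to 5.64 Mb in the 3 siRNA-treated KO groups, from 0.648 to 3.95 Mb in HSPCs and from 0.775 to 1.74 Mb in K-562 cells. The peak lists hold no read counts, so depth is unknown, and a window at 0 may lack the mark or may have been sequenced too thinly for a call. The labels number the libraries of a group without saying whether they came from separate cultures or animals, and the paper calls its replicates biological. The p-values measure only the spread between libraries. Peaks of one histone mark do not check the deletion or the knockdowns, and they identify the cells poorly. In at least 2 untransfected WT mESC libraries, windows of 5 of 6 pluripotency, 5 of 7 HSPC and 3 of 6 mature myeloid markers were covered, beside 55.7% of all windows. In at least 2 WT HSPC libraries, windows of 1 of 6 pluripotency, 0 of 7 HSPC and 0 of 6 mature myeloid markers were covered, beside 11.9% of all windows. A lower covered length in a group cannot be told apart from fewer cells that carry the mark.

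NF-kB proteins wait in the cytoplasm bound to IkB inhibitors until IKK marks the inhibitors for destruction, after which they enter the nucleus and switch on cytokine genes and their own inhibitors. TNF receptors, TLRs with the interleukin-1 receptor, and the cytosolic NOD sensors each reach IKK through adaptors and ubiquitin chains, and in blood stem cells this signalling shapes inflammatory output and the balance between self-renewal and myeloid differentiation. H2AK119ub is placed by Polycomb repressive complex PRC1, is found mainly at CpG-rich starts of silent or weakly transcribed genes, and is removed by PR-DUB, whose catalytic subunit is BAP1.

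Relb, Ripk2 and Irak4 carried the mark most widely, and their covered DNA is shown first, with Il6st and Nfkbia for a difference and a motif described later. The Relb stretch, at chr7:19628561-19628852 of mm10 on the minus strand, is the sequence that peaks of both BAP1 libraries had in common. The RELB stretch, at chr19:45002001-45002174 of hg38 on the plus strand, was common to the 10 K-562 libraries with H2AK119ub there. The Ripk2, Il6st and Nfkbia sequences are the 250 bases before each gene start in mm10, at chr4:16163648-16163897 on the minus strand, chr13:112463820-112464069 on the plus strand and chr12:55492648-55492897 on the minus strand. The last is the 95 bases between the divergent starts of Irak4 and its neighbour Pus7l, at chr15:94543548-94543642 of mm10, read on the plus strand. Capitals mark GGGCGG, the core of a GC box, or its reverse complement CCGCCC, except for Nfkbia, where they mark the one match to the NF-kB consensus.
Relb BAP1 stretch: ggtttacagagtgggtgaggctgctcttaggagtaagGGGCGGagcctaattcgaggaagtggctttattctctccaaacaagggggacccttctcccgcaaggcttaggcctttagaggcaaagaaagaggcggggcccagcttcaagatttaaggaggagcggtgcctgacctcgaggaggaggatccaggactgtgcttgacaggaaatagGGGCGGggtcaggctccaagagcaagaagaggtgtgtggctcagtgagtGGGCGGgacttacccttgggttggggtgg
RELB H2AK119ub stretch: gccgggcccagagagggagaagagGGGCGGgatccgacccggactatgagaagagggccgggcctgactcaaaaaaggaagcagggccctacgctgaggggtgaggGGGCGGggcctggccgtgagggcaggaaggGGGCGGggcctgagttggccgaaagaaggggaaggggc
Ripk2 upstream: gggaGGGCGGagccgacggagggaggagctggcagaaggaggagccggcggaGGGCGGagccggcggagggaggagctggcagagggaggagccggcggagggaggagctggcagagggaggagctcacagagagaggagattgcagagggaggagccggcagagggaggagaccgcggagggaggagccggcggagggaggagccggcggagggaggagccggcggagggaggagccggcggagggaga
Il6st upstream: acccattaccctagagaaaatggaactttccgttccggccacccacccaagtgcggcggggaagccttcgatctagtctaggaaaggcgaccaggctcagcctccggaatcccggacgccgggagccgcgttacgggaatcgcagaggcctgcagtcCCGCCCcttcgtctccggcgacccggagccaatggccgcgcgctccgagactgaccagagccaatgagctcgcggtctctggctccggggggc
Nfkbia upstream: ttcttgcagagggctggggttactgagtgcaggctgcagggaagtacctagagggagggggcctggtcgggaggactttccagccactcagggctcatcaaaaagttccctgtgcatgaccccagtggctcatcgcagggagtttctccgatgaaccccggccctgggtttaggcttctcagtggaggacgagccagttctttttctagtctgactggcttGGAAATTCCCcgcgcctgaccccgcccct
Irak4 and Pus7l: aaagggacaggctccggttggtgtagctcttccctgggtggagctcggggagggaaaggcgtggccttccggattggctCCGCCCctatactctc

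The GC-box core, searched on both strands after these sequences had been seen, occurred 3 times in the Relb stretch and 3 times in the RELB stretch. At the same distance from the start and with the same length, 16.3% of mouse regions held at least 1 copy and 2.08% held at least 3, against 22.2% and 2.51% of human regions. The Relb stretch was partly exonic by way of a short processed transcript that starts inside it, whereas the RELB stretch lay within an intron. The NF-kB consensus, a 10-base motif with ambiguous positions searched on both strands, was found in the promoter sequence, 250 bases before to 50 after the start, of 11 of the 32 members present in the RefSeq promoter table for GRCm38.p6, or 34.4%, beside 5.14% of all genes in it. The 11 were Nfkb2, Rel, Nfkbia, Nfkbie, Traf3, Tnfaip3, Tlr2, Il1r1, Map3k7, Nlrp3 and Il6. It was in 6 of 22 matched members covered in at least 2 WT siNC mESC libraries (27.3%) and in 5 of the 10 others (50.0%). A match describes letters in the window and not a bound site.

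In mESCs most of these genes carried H2AK119ub. Any covered base was found at 31 of 40 members (77.5%) in at least 1 untransfected WT library and at 20 (50.0%) in all 3, beside 64.7% and 44.1% of all windows. The untransfected KO group had 29 and 22 members, and the WT siNC group 30 and 23. Across single libraries of these 3 groups, 55.0% to 70.0% of members were covered, beside 47.6% to 58.6% of all windows. The KO siNC group stood far lower, with 9 members covered in at least 1 library and 3 in all 3 (22.5% and 7.5%, beside 23.2% and 5.31% of windows).

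**Figure D1:**
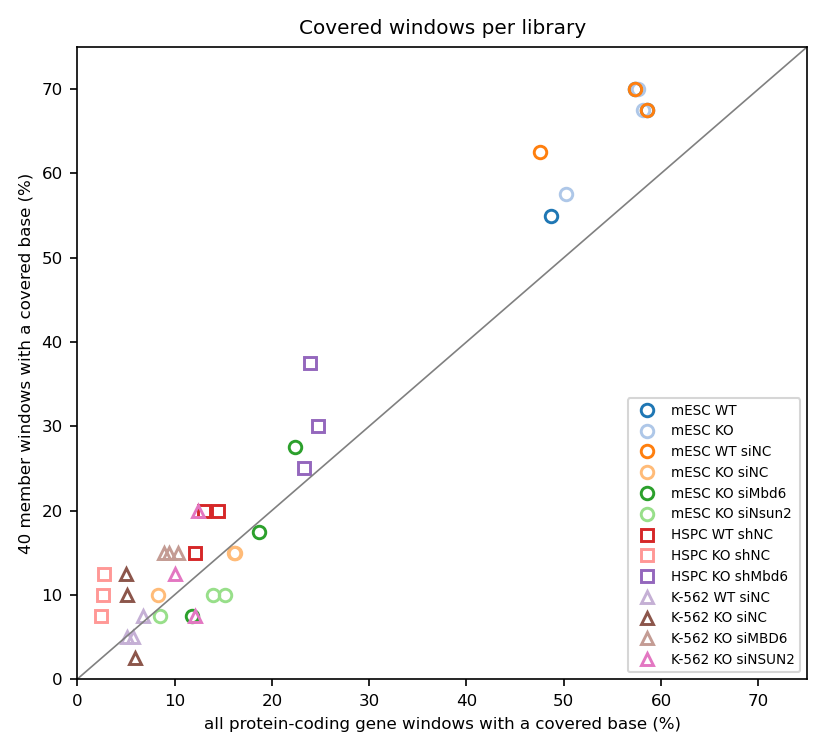
Share of the 40 member windows with a covered base (vertical axis, %) against the share of all protein-coding windows (horizontal axis, %), 1 point per H2AK119ub library, with points that coincide drawn over each other and the line marking equal shares. Untransfected mESCs and WT siNC mESCs sit at 55.0% to 70.0% of members, above the line.

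HSPC and K-562 libraries covered fewer windows of every kind. In WT shNC HSPCs 10 of 40 members were covered in at least 1 library and 6 of 40 in all 3, beside 20.8% and 6.91% of windows. In KO shNC HSPCs the counts were 6 and 2 (15.0% and 5.0%, beside 4.8% and 0.949%), and in KO shMbd6 HSPCs 19 and 8 of 40, beside 33.8% and 15.0%. In K-562 cells between 5 and 9 members were covered in at least 1 library of a group, and 30 of 40 in none of the 12 libraries, beside 75.6% of windows.

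Breadth differed sharply among the members. Ripk2, the kinase that carries NOD signals to TAK1 and IKK, was covered in all 27 mouse H2AK119ub libraries, as were 0.488% of mouse windows. Relb, the transactivating subunit of the non-canonical pathway, was covered in 26, and Irak4, the first kinase recruited to the MyD88 adaptor, in 25. Myd88 followed with 21, then Il6st and Nfkbib with 19 each. RIPK2 and IRAK4 were at 0 in all 12 K-562 libraries, whereas RELB was covered in 10, MYD88 and TNFRSF1B in 9 and NFKBIB in 8.

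At the other end, 6 members were at 0 in all 39 libraries of both species: Tlr4, the lipopolysaccharide receptor, Irak1, a kinase downstream of Irak4, Nlrp3 and Casp1, sensor and protease of an inflammasome, and the cytokines Il1b and Il6. They made up 15.0% of the members, beside 27.8% of mouse windows covered in no mouse library. Traf3, Il1r1 and Ccl2 were each covered in 1 mouse library, always of KO shMbd6 HSPCs, with 637, 299 and 337 bases. Tab2, an adaptor of TAK1, was covered in 1 WT mESC library with 204 bases.

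**Figure D2:**
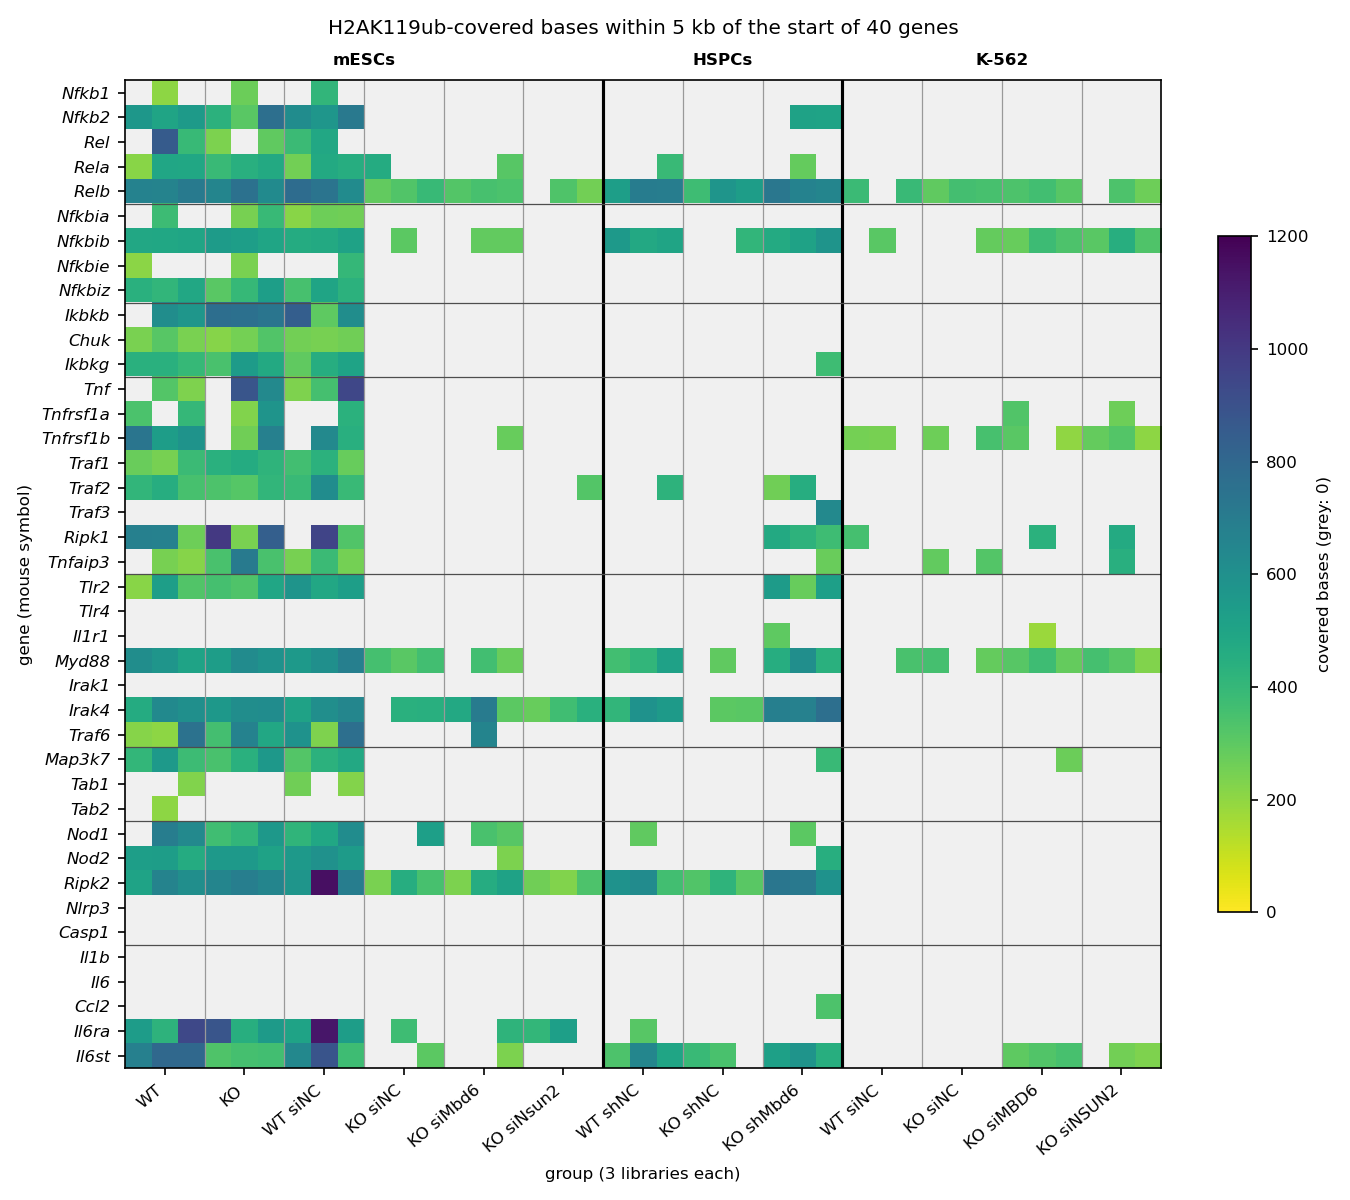
H2AK119ub-covered bases within 5 kb of the start (colour, 0 in grey) of the 40 members (rows, ordered by role) in all 39 libraries (columns, 3 per group). Relb, Irak4 and Ripk2 form the rows filled across mouse cells, and Tlr4, Irak1, Nlrp3, Casp1, Il1b and Il6 are at 0 throughout.

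Members covered in mESCs tended to have CpG-rich starts, as covered windows in general did. In the 1000 bases around the start, the 27 members covered in at least 2 WT siNC mESC libraries had a median observed-to-expected CpG ratio of 0.724 and a GC content of 58.9%, while the 10 members covered in none had 0.311 and 48.3%. Over all windows the corresponding medians were 0.684 and 58.2% against 0.194 and 45.6%. Irak1 (CpG ratio 0.749) and Traf3 (1.0) were exceptions, being CpG-rich and at 0 in every mESC library. Exceptions the other way included Tnf (0.298), Nfkbib (0.325) and Traf1 (0.386), which had low ratios and were covered in every WT siNC library. The ratio describes the gene start and not the covered stretch, which for Tnf and mostly for Chuk lay upstream, away from the start.

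The covered stretches were short and close to gene starts. In mESCs 302 stretches lay in the windows of 31 members, with a median length of 411.5 bases; 87.1% had their centre within 1000 bases of the gene start and 61.3% contained a transcript start of the member itself. In HSPCs 71 stretches in 20 members had a median of 466 bases, and 90.1% were within 1000 bases of the start. The 51 K-562 stretches, in 10 members, were shorter, with a median of 313 bases, and 58.8% were within 1000 bases. Stretches were cut at the window edge, as at TNFRSF1B in K-562 cells, so lengths and centres are those of the part inside. The peak caller's median fold enrichment over local background was 4.53, 4.98 and 4.73 in the 3 cell types.

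For several members the covered DNA belonged as much to a neighbour. The 7 Tnf stretches, with centres between -3349 and -2993 bases from the Tnf start, were all nearest the start of Lta, the lymphotoxin gene beside it. All 9 K-562 stretches in the MYD88 window were nearest ACAA1, whose start on the other strand lies at -1310 bases. The Irak4 and Pus7l starts are 96 bases apart and the Ikbkg and Fam3a starts 18 bases apart, so coverage of the 2 starts cannot be told apart. The Nfkbib stretches were nearer the Sirt2 start in the gene-level annotation but each of the 12 in mESCs and 7 in HSPCs also held a start of an Nfkbib transcript. Tlr2 was covered at different places: centres were 223 to 362 bases downstream of its start in mESCs and between -3822 and -3593 bases, upstream, in KO shMbd6 HSPCs. The Chuk stretches had a median centre at -4406 bases from the gene start.

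Relb was the one member with BAP1 in its window. BAP1 peaks of 292 and 315 bases lay in its window in the 2 WT mESC libraries, with fold enrichments of 5.13 and 5.62 and -log10 q values of 3.31 and 4.09. The peak centres were 731 and 734 bases downstream of the gene start, overlapping the H2AK119ub stretch, whose centres in mESCs were 630 to 739 bases downstream. Over all windows 52 of 21911 (0.237%) had BAP1 in both libraries, and 48 of these 52 also had H2AK119ub in at least 2 untransfected WT libraries. When BAP1 peaks below a -log10 q of 5 were dropped, 0 members had BAP1 in both libraries.

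**Figure D3:**
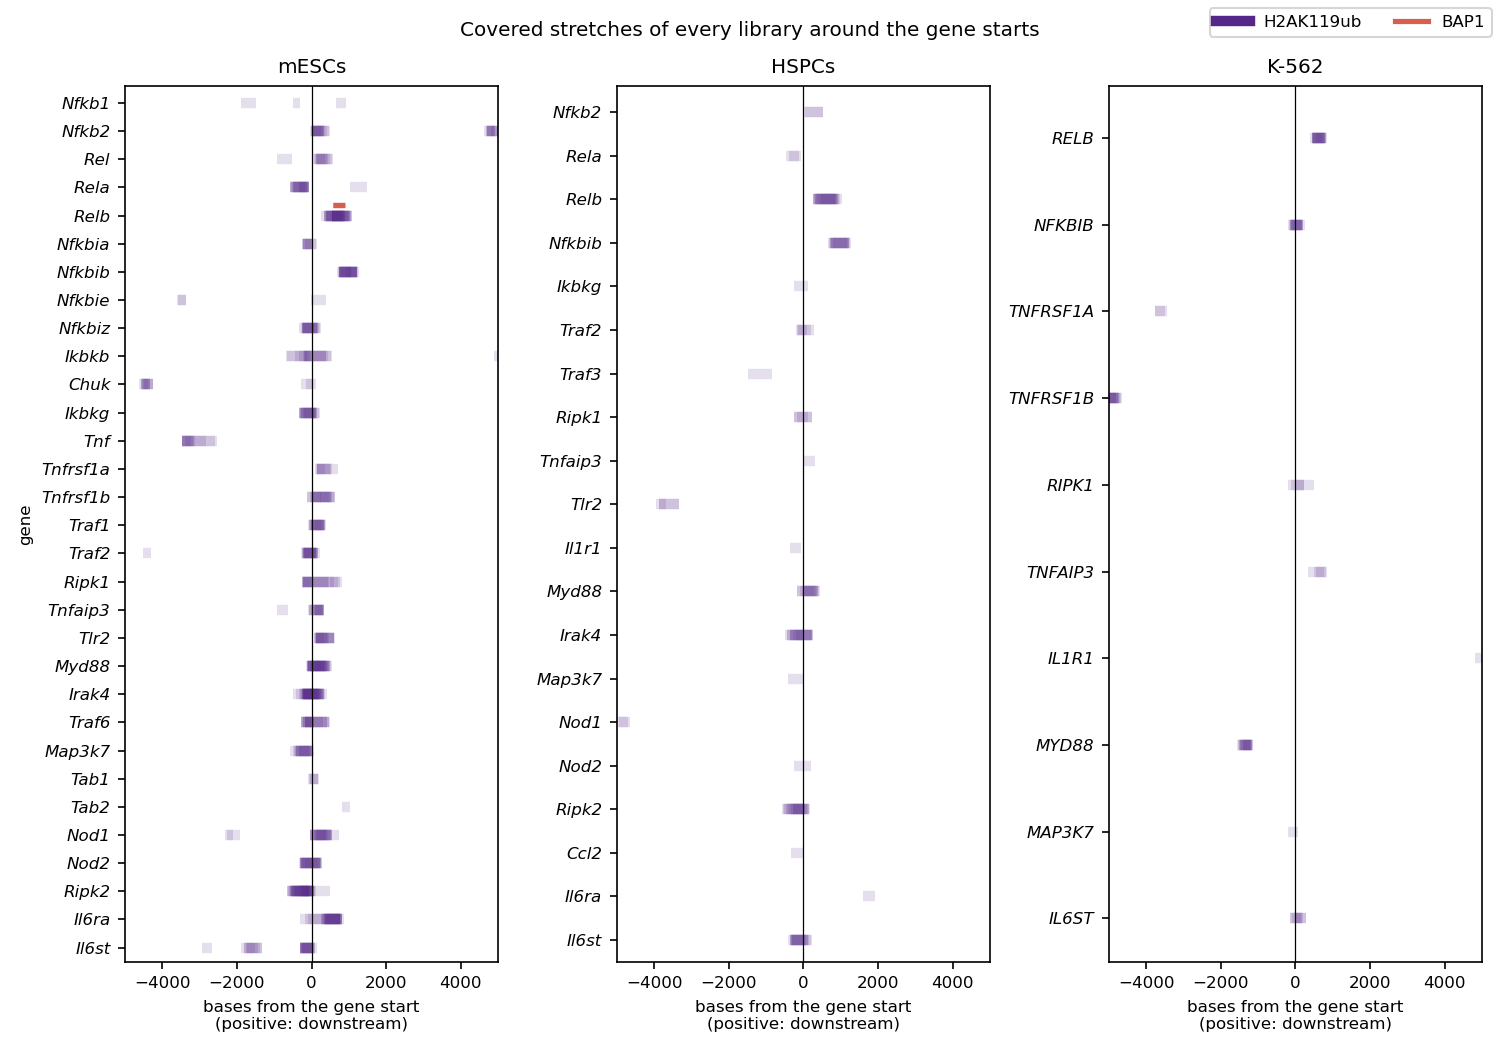
Covered stretches by distance from the gene start in bases (horizontal axis, positive downstream), for members covered in mESCs, HSPCs and K-562 cells; each bar is 1 stretch of 1 library, darker where libraries overlap, with BAP1 in red. The Relb stretches in mESCs are centred 630 to 739 bases downstream and overlap BAP1, and Tnf is covered only upstream, at the Lta start.

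In untransfected mESCs no member passed the test for a difference between Tet2 KO and WT. Of the 40, 27 had covered bases in at least 3 of the 6 libraries and were tested with limma. At an adjusted p under 0.05, 0 were called, where 0.0234% of the 12820 windows tested were called. An unadjusted p under 0.05 was found at 1 member, beside 710 of the 12820 windows. The median difference, KO minus WT, was 27.3 bases over these members and 30.0 over all windows tested. Single members differed by up to -408 bases at Il6st and 358.3 at Ikbkb, and the median SE was 95.6 bases. The 13 others were too seldom covered to test.

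The NF-kB subunits overlapped between genotypes. Relb had 670, 662 and 708 covered bases in the WT libraries and 656, 752 and 624 in the KO libraries. Nfkb2, the precursor of the non-canonical pathway, had 565, 501 and 547 against 428, 306 and 761, and Rela, the main canonical subunit, 215, 489 and 487 against 389, 444 and 472. Rel, a subunit used mostly in lymphoid and myeloid cells, was uneven in both genotypes, with 0, 854 and 390 against 237, 0 and 295. Nfkb1, precursor of the canonical pathway, was covered only in replicate 2 of each group, at 204 and 271 bases.

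Among the inhibitors, Nfkbib had 480, 483 and 496 bases in WT and 540, 525 and 494 in KO, and Nfkbiz, an atypical IkB protein that acts in the nucleus, 438, 408 and 482 against 309, 398 and 527. Nfkbia, the inhibitor that NF-kB itself induces, was listed at 0, 376 and 0 in WT and at 0, 244 and 391 in KO. Nfkbie was covered in 1 library of each genotype, with 210 and 242 bases. All 4 overlapped between genotypes.

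Without overlap between the libraries, 1 member was lower and 3 were higher in KO. Beside them, 1.64% of all windows were lower and 4.73% higher in the same way. The lower one was Il6st, the signalling chain shared by receptors of the IL-6 family, with 678, 794 and 796 bases in WT and 330, 353 and 361 in KO. Its difference of -408 bases (SE 65.9) had an unadjusted limma p of 0.000781 and did not pass after adjustment (adjusted p = 0.221). All 6 libraries had a stretch over the Il6st start, and each WT library had in addition a stretch centred between -1632 and -1537 bases from the start that no KO library had. With siNC, 1 of 3 WT libraries and 1 of 3 KO libraries had an upstream stretch there, at -1578 and -1670 bases.

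The 3 higher members were Ikbkb, the main catalytic kinase of IKK, Traf1, an adaptor of TNF receptors, and Tnfaip3, a ubiquitin-editing enzyme that restrains the pathway. Ikbkb had 0, 612 and 571 bases in WT against 767, 759 and 732 in KO. Traf1 had 272, 245 and 381 against 440, 463 and 419, and Tnfaip3 had 0, 244 and 220 against 345, 704 and 344. None of them passed the test. Tnf, with 0, 321 and 234 against 0, 884 and 635, overlapped.

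In cells given siNC, KO values were lower at nearly every member that was covered. Of the 24 members tested, 21 fell at an adjusted p under 0.05 and 0 rose, while 71.9% of the 10756 windows tested fell, and 21 of the 40 were lower in KO without overlap, beside 36.1% of all windows. The median difference was -413 bases over the tested members and -418.3 over all windows tested. A member needed covered bases in at least 3 of the 12 siRNA libraries, and 17 of the 24 reached this only with the WT siNC libraries, so that they could hardly be other than lower in KO. The count is a description to be read against the background, and those 17 are given below by their values alone, without a p. The 7 others were Relb, Nfkbib, Myd88, Irak4, Nod1, Ripk2 and Il6ra. These members moved with covered length, which was 10.0 to 17.0 Mb in WT siNC and 1.82 to 4.30 Mb in KO siNC libraries; the part of that difference in the result was not tested. With libraries scaled to equal covered length 12 of the 24 fell, and the differences of Relb, Myd88 and Ripk2 turned positive. Scaling leaves 0 at 0, so members at 0 in all 3 KO siNC libraries stayed lower by construction, and scaling is no check on them. Relb, Myd88 and Ripk2 were the members covered in all 3 KO siNC libraries. Leaving out a WT siNC library left 10 of 13 members tested called without replicate 1, 6 of 12 without replicate 2 and 7 of 12 without replicate 3; on the 24 members tested with all libraries, 19 to 21 were called, an alternative added after the data had been seen.

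Among the subunits, Relb fell from 774, 740 and 619 bases to 290, 328 and 393 (-374, SE 78.4, adjusted p = 0.002) and so kept part of its coverage. Nfkb2 had 615, 569 and 715 in WT and 0 in all 3 KO libraries. Rela had 255, 473 and 454 in WT against 460, 0 and 0 in KO, and overlapped. Nfkb1, with 0, 408 and 0 in WT, and Rel, with 380, 481 and 0, were at 0 in KO and too sparse to test.

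Of the inhibitors, Nfkbib fell from 460, 473 and 508 bases to 0, 304 and 0 (-379, SE 94.8, adjusted p = 0.00539). Nfkbiz had 348, 498 and 431 in WT and Nfkbia 215, 266 and 260, and both were at 0 in every KO library. In the 3 WT siNC libraries the Nfkbia stretch lay over the gene start and overlapped the upstream sequence shown above. Nfkbia was picked by the study as an example in HSPCs, from RNA changes among other evidence. The study showed it as signal tracks of H2AK119ub and chromatin accessibility. In the peak calls used here, which are not spike-in scaled, its window was at 0 in all 9 HSPC libraries, those with shMbd6 included. Peak calls and signal tracks are different measures, so these values do not speak to the tracks. Nfkbie was covered in 1 WT library, at 403 bases.

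The 3 IKK subunits were covered in every WT siNC library and in none of the KO siNC libraries. Ikbkb had 842, 298 and 610 bases in WT. Chuk, the second catalytic kinase and the one that serves the non-canonical pathway, had 256, 247 and 262. Ikbkg, the regulatory subunit that reads ubiquitin chains, had 291, 453 and 506.

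The genes of the TNF receptor side were likewise at 0 in all 3 KO siNC libraries. Tnf had 234, 356 and 946 bases in WT, all at the Lta start. Traf2, an adaptor that brings ubiquitin ligases to the receptor, had 387, 617 and 387, Traf1 362, 428 and 279 and Tnfaip3 248, 382 and 253. Tnfrsf1b, the second TNF receptor, had 0, 637 and 445, so that its groups overlapped at 0. Ripk1, the kinase at the TNF receptor complex, had 0, 955 and 324, and Tnfrsf1a 0, 0 and 435, and neither was tested.

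On the TLR side, Myd88 fell from 552, 604 and 684 bases to 354, 308 and 365 (-271, SE 80.0, adjusted p = 0.0125), keeping coverage in every library. Irak4 had 507, 609 and 648 in WT against 0, 440 and 442 in KO without overlap, and did not pass (-294, adjusted p = 0.0673). Tlr2, a receptor for bacterial lipoproteins, had 577, 479 and 527 in WT, Traf6, the ubiquitin ligase of this branch, 588, 234 and 764, and Map3k7, the TAK1 kinase on which the branches converge, 323, 431 and 474. All 3 were at 0 in KO. Tab1, a partner of TAK1, had 260, 0 and 222 in WT and was not tested.

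Of the NOD genes, Ripk2 fell from 574, 1153 and 692 bases to 242, 452 and 351 (-458, SE 137, adjusted p = 0.0135). Nod1 had 417, 483 and 615 against 0, 0 and 524 and did not pass (adjusted p = 0.0598), and Nod2 had 553, 594 and 542 in WT and 0 in KO. Of the IL-6 receptor chains, Il6ra fell from 505, 1127 and 531 to 0, 373 and 0 (-596.7, SE 210, adjusted p = 0.0278), and Il6st had 638, 890 and 374 against 0, 0 and 304 without overlap. Relb, Myd88 and Ripk2 were the members still covered in all 3 KO siNC libraries.

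**Figure D4:**
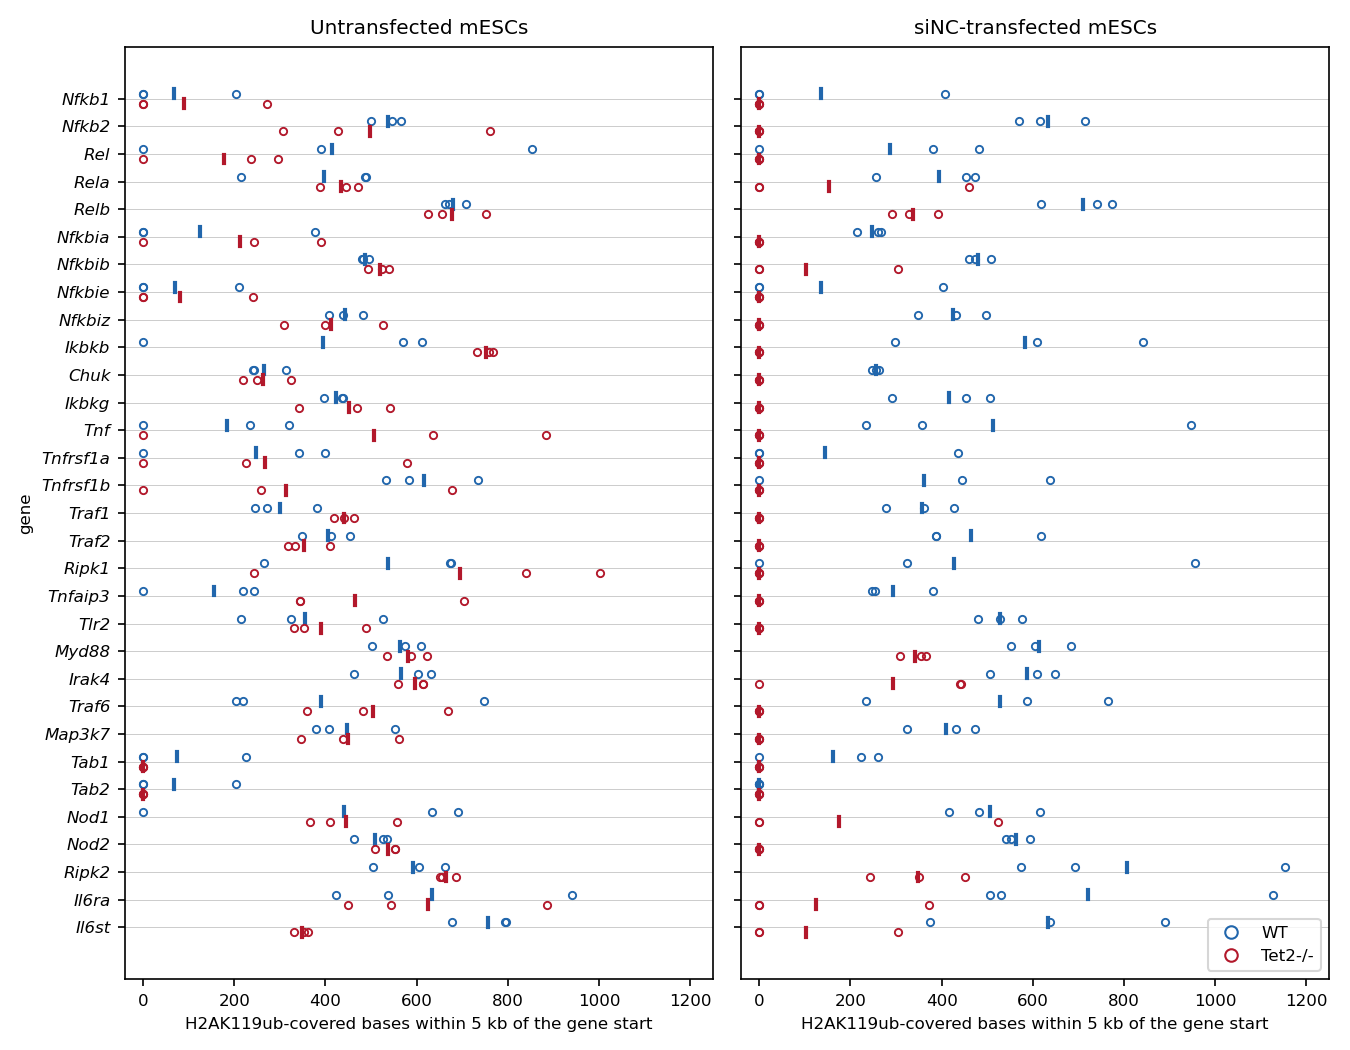
H2AK119ub-covered bases within 5 kb of the start (horizontal axis) in WT and Tet2-/- mESCs, untransfected (left) and with siNC (right), for the members covered in mESCs; open circles are single libraries and vertical bars are means of 3. In the right panel most Tet2-/- points lie at 0, while Relb, Myd88 and Ripk2 keep 242 to 452 bases.

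The KO effect differed between the siNC and the untransfected experiment at 16 of 30 members tested with limma over all 6 mESC groups, always toward a lower value with siNC, beside 45.0% of 13874 windows. The largest of these differences of differences was -941.7 bases at Ikbkb and the smallest -253 at Chuk. The median was -403.2 bases over the tested members and -395.7 over all windows. With libraries scaled to equal covered length, 9 members were called and Relb, Myd88 and Ripk2 turned positive. The transfected and the untransfected libraries differ in siRNA treatment, and whether they were prepared together is not given in the sources used here.

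No member was called after knockdown of Mbd6 or Nsun2 in KO mESCs, and both comparisons shared the 3 KO siNC libraries as controls. With siMbd6, 0 of 24 tested members were called by limma, beside 0.177% of windows. An unadjusted p under 0.05 was found at 0 of them, beside 460 of 10756 windows. With siNsun2, 0 were called, beside 0.0186% of windows, and 1 had an unadjusted p under 0.05, beside 267 of 10756 windows. The median SE over the tested members was 84.7 bases, and 16 members were too sparse to test. Many tested members passed the filter through the WT siNC libraries, which are in neither comparison. Nfkb2, Nfkbia, Nfkbiz, Ikbkb, Chuk, Ikbkg, Tnf, Traf1, Tnfaip3, Tlr2 and Map3k7 were at 0 in the siNC, siMbd6 and siNsun2 KO libraries. They had no difference to test and add nothing to these counts. The same held for Traf2 with siMbd6 and for Tnfrsf1b, Traf6 and Nod2 with siNsun2. In siMbd6 libraries 12 members were covered at least once, in siNsun2 libraries 5 and in KO siNC libraries 9, beside 28.8%, 21.7% and 23.2% of all windows.

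Relb had 321, 351 and 342 bases with siMbd6 and 0, 329 and 256 with siNsun2, beside 290, 328 and 393 with siNC. Ripk2 had 238, 459 and 508 and then 258, 227 and 336, beside 242, 452 and 351. Irak4 had 475, 702 and 301 and then 278, 369 and 440, beside 0, 440 and 442. All 3 genes overlapped their controls.

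Myd88 had 0, 364 and 273 bases with siMbd6 and 0 in all 3 siNsun2 libraries, beside 354, 308 and 365 with siNC. It was the one member lower without overlap after siNsun2, as were 0.771% of all windows, and its difference of -342.3 bases (SE 80.0) did not pass adjustment (adjusted p = 0.772). Nfkbib had 0, 290 and 289 with siMbd6 and 0 with siNsun2, beside 0, 304 and 0. Nfkb1, Nfkb2, Rel, Nfkbia, Nfkbie, Nfkbiz, Tnf and Tnfaip3 were at 0 in all 9 libraries of the KO siRNA groups, and Rela was covered in 1 siMbd6 library, at 313 bases, and in 1 siNC library.

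In HSPCs, Nfkbib, Myd88 and Irak4 had less covered DNA in Tet2-/- than in WT cells with shNC. Of 9 members tested, these 3 fell and 0 rose by limma, beside 22.7% of the 4242 windows tested; the same 3 of the 40 were lower without overlap, beside 5.54% of all windows. Nfkbib went from 553, 476 and 498 bases to 0, 0 and 412 (-371.7, SE 109, adjusted p = 0.0399). Myd88 went from 365, 410 and 514 to 0, 294 and 0 (-331.7, SE 94.7, adjusted p = 0.0354), and Irak4 from 409, 589 and 548 to 0, 300 and 308 (-312.7, SE 93.7, adjusted p = 0.0438). In each, at least 1 KO library was at 0.

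These calls depended on scaling and on single libraries. Covered length was 1.89 to 2.24 Mb in WT shNC and 0.648 to 0.681 Mb in KO shNC libraries, which also held 205 to 231 peaks on the Drosophila spike-in genome against 48 to 56; the part of either in the result was not tested. With libraries scaled to equal covered length, 0 members were lower and 2, Relb and Ripk2, were higher, and the Irak4 difference turned positive; over all windows the calls went from 964 lower and 1 higher to 760 lower and 194 higher. Without WT replicate 2 or without KO replicate 1, 0 members were called. Without WT replicate 3 none of the 3 genes passed, Nfkbib having an adjusted p of 0.0683, and without KO replicate 2 Myd88 alone did.

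Relb, Ripk2 and Il6st overlapped between genotypes and did not pass. Relb had 527, 694 and 693 bases in WT and 372, 572 and 530 in KO (adjusted p = 0.178), and Ripk2 590, 623 and 361 against 324, 421 and 306 (adjusted p = 0.152). Il6st had 337, 650 and 495 against 388, 345 and 0. Rela was covered in 1 WT library, at 385 bases, and Nfkb1, Nfkb2, Rel, Nfkbia, Nfkbie, Nfkbiz, Tnf, Tnfaip3 and the 6 members at 0 in every library were at 0 in both groups.

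With shMbd6 in Tet2-/- HSPCs, Ripk1, Tlr2, Irak4, Myd88, Nfkbib, Ripk2 and Relb gained covered DNA relative to the same KO shNC libraries. By limma 7 of 9 tested members rose and 0 fell, beside 72.0% of windows tested, and 8 of the 40 were higher without overlap, beside 14.1% of all windows. The median difference was 380.7 bases over the tested members and 403.7 over all windows tested. Covered length was 3.43 to 3.95 Mb and spike-in peaks 85 to 95 in the shMbd6 libraries; the part of either was not tested. Of the 9 members, Ripk1, Tlr2 and Traf2 reached the threshold for testing only with the shMbd6 libraries and could hardly be other than higher, so that 2 of the 7 calls were fixed by the filter.

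Ripk1 had 471, 422 and 372 bases with shMbd6, over its own start, and Tlr2 had 542, 281 and 521, at the upstream position described above. Both were at 0 in all 6 shNC libraries, and no p is given for them. Irak4 rose to 681, 671 and 760 (501.3, SE 93.7, adjusted p = 0.00225), above each of the 3 WT values as well.

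Myd88 rose to 450, 605 and 440 bases (400.3, adjusted p = 0.00623), Nfkbib to 466, 509 and 579 (380.7, adjusted p = 0.0133) and Ripk2 to 728, 714 and 587 (326, adjusted p = 0.00818). Relb rose to 726, 669 and 652 (191, SE 74.5, adjusted p = 0.0455). Il6st, with 516, 578 and 446, was higher without overlap and did not pass (269, adjusted p = 0.067). Nfkb2 was covered in 2 of the 3 shMbd6 libraries, at 508 and 502 bases, and Rela and Tnfaip3 in 1 each, at 282 and 273; these were not tested.

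The increase depended on scaling. With libraries scaled to equal covered length, 4 members were called, 2 higher and 2 lower, and the differences of Relb, Nfkbib, Myd88, Irak4 and Ripk2 turned negative. Of the 7 called before scaling, Ripk1 and Tlr2 alone kept their direction. Both were at 0 in all shNC libraries, which scaling leaves at 0, so they could not turn. Over all windows the calls went from 4 lower and 3055 higher to 204 lower and 1183 higher. Without shMbd6 replicate 1 or replicate 2, 4 of 6 tested members were called; on the 9 members tested with all libraries 6 were, an alternative added after the data had been seen.

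**Figure D5:**
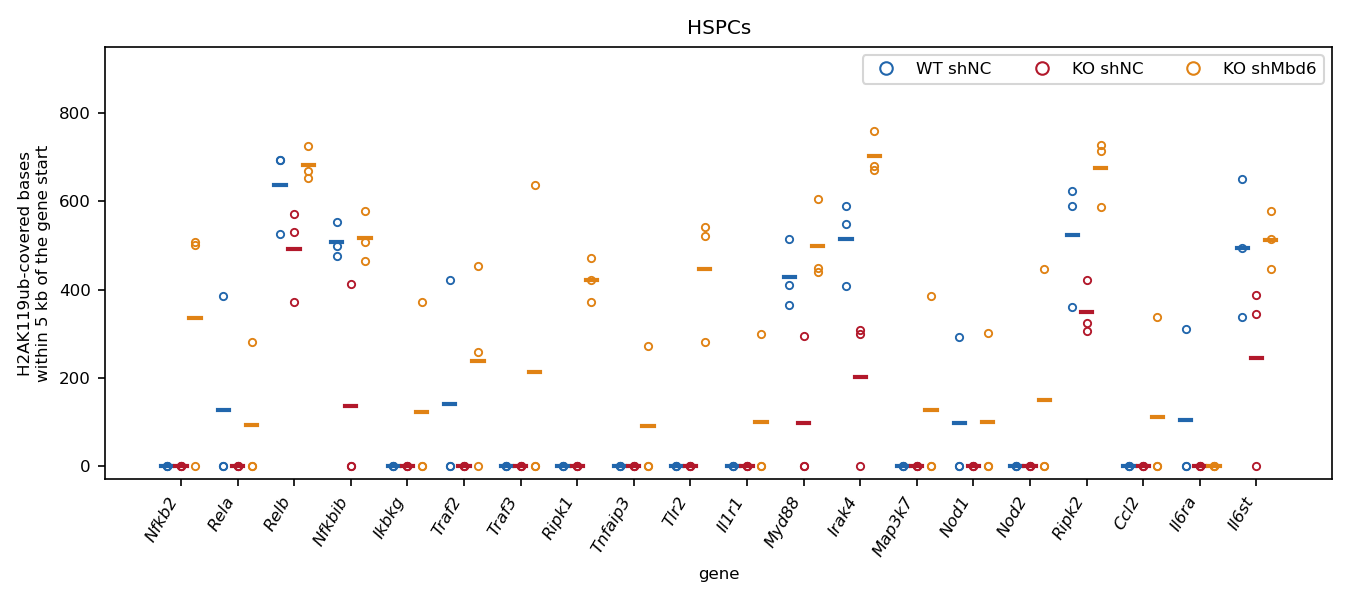
H2AK119ub-covered bases within 5 kb of the start (vertical axis) in HSPCs, for the 20 members covered in any HSPC library; open circles are single libraries and bars are means of 3 for WT shNC, KO shNC and KO shMbd6. Ripk1 and Tlr2 are at 0 in both shNC groups and covered in all 3 shMbd6 libraries, at 281 to 542 bases.

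In K-562 cells 7 members could be tested, RELB, NFKBIB, TNFRSF1B, RIPK1, TNFAIP3, MYD88 and IL6ST, and 0 were called by limma in any comparison. For KO against WT with siNC the background was 0.122% of 2457 windows, for siMBD6 and for siNSUN2 against the shared KO siNC libraries it was 0%. The members with an unadjusted p under 0.05 numbered 0, 2 and 1 in these comparisons, beside 159, 264 and 362 of the 2457 windows. With siMBD6, 1 of the 2 was IL6ST, which reached the threshold for testing only with the siMBD6 libraries. The 12 K-562 libraries covered 0.775 to 1.74 Mb, and the median SE over the tested members was 113 bases.

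RELB had 382, 0 and 386 bases in WT siNC, 291, 360 and 350 in KO siNC, 335, 364 and 313 with siMBD6 and 0, 334 and 264 with siNSUN2, and the ranges of the 4 groups overlapped. MYD88 had 0, 0 and 343, then 356, 0 and 284, then 310, 371 and 284, and last 354, 310 and 229. TNFRSF1B was covered in 2 or 3 libraries of each group at 197 to 347 bases. Its stretches, centred between -4902 and -4827 bases from the start, began at the edge of the window. Their lengths and centres describe only the part inside it.

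IL6ST was the one member higher without overlap after siMBD6, as were 0.925% of human windows. It was at 0 in all WT and KO siNC libraries and had 297, 328 and 348 bases with siMBD6 and 0, 257 and 230 with siNSUN2. IL6ST reached the threshold for testing only with the siMBD6 libraries and could hardly be other than higher, so no p is given for it. NFKBIB was the one member higher without overlap after siNSUN2, as were 1.45% of windows: it had 0, 305 and 0 in WT siNC, 0, 0 and 282 in KO siNC, 281, 379 and 333 with siMBD6 and 309, 449 and 332 with siNSUN2 (269.3, SE 106, adjusted p = 0.261). Neither passed the test. The SIRT2 start lies 162 bases from the NFKBIB start on the other strand, so coverage there cannot be credited to NFKBIB alone. NFKB1, NFKB2, REL, RELA, NFKBIA, NFKBIE, NFKBIZ and TNF were at 0 in all 12 libraries, and TNFAIP3 had 287, 0 and 322 in KO siNC and 441 in 1 siNSUN2 library.

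The remaining genes of the pathway, a list of 60 that includes LUBAC subunits, further TLRs and interleukin-1 family genes, were counted in the same comparisons. In untransfected mESCs 0 of 42 tested were called, and with siNC 30 of 41 fell and 0 rose, beside 71.9% of windows. The largest falls were at Rnf31, the catalytic LUBAC subunit, from 1247, 1687 and 1066 bases to 0, at Tradd, an adaptor of the TNF receptor, from 1237, 1242 and 1005 to 454, 0 and 26, and at Il1rap and Tlr9. With siMbd6 and with siNsun2 0 of 41 were called. In HSPCs 2 of 17 fell in KO, Sharpin, another LUBAC subunit, from 677, 573 and 389 to 0, and Traf5 from 616, 664 and 613 to 0, 314 and 0, and 13 of 17 rose with shMbd6, beside 22.7% and 72.0% of windows. In K-562 cells 0 of 8 were called. These genes passed the same filter as the members. How many reached it only with the WT siNC or only with the shMbd6 libraries was not counted. Such genes could hardly be other than lower with siNC or higher with shMbd6. Rnf31, Il1rap and Tlr9 were at 0 in every KO siNC library. The counts are descriptions to be read against the background.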

How the data were processed

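CUT&Tag libraries were made by the study from a fixed number of cells each with Drosophila spike-in. Per the methods and the submitters' processing notes, reads were trimmed with Trimmomatic 0.39 and mapped with Bowtie2 2.4.1 to mm10 or hg38 together with the Drosophila genome, duplicates were removed with Picard, and broad peaks were called with MACS2 at a broad cutoff of 0.01 in each library. The deposited lists give peak positions, the fold enrichment over local background as a ratio, and the −log10 q, as the authors' caller wrote them, with no read counts and no spike-in scaling. Whether covered length moved with sequencing depth could not be examined without read counts.

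Covered bases within 5 kb of the starts of protein-coding genes (GENCODE vM21 and v44) were computed per library. Groups were compared with limma 3.58.1 in R 4.3.3 (moderated two-sided test, all groups of an experiment in one fit) over windows covered in at least 3 libraries of the experiment, with Benjamini-Hochberg adjustment over all windows tested and calls at 0.05. Differences are in bases, and SE is the standard error of the fit. "Without overlap" means that all 3 libraries of one group exceeded all 3 of the other. Alternatives were scaling to equal covered length, peaks of −log10 q of at least 5, no filter, windows of 2 or 10 kb, a replicate block, a trend and robust variance model and leaving out single libraries. The test was also run on simulated data with normally distributed values. That simulation did not model groups without any covered base, so it is no check on members of that kind. No 2 peak lists were identical. Sequence came from the mm10 and hg38 genomes.

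The members, the further pathway list and the tests were chosen with earlier results of these data known. By rule, values were given in every library for called members whose groups did not overlap, largest difference first, for a fixed set of subunits, inhibitors and cytokines, and for up to 4 called genes per comparison of the further list. Members with values outside this rule (such as Irak4, Nod1, Tnfrsf1b, Ripk1 and Il6st, Ikbkb and Traf1 in untransfected cells, Myd88 after siNsun2, and the K-562 genes) and those named for breadth or position were chosen after their values were seen.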

Additional observations from a re-analysis of the deposited data

Results flagged for a closer look

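The effect of Tet2 loss on covered bases differed between siNC-treated and untransfected mESCs at 16 of 30 members tested. Beside them, 45.0% of the 13874 windows tested were called lower. The calls come from the limma test of that difference itself with Benjamini-Hochberg adjustment over all windows tested. Each value is the KO-minus-WT difference with siNC minus the same difference in untransfected cells, over 3 libraries in each of the 4 groups. Among subunits and inhibitors it was -593.7 bases at Nfkb2, -371.3 at Relb, -412.3 at Nfkbib and -394.3 at Nfkbiz. Among IKK genes it was -941.7 at Ikbkb, -253.0 at Chuk and -444.0 at Ikbkg. On the TNF receptor side it was -833.3 at Tnf, -497.7 at Traf1, -412.0 at Traf2 and -604.0 at Tnfaip3. On the TLR and NOD side it was -562.7 at Tlr2, -289.3 at Myd88, -412.0 at Map3k7, -593.3 at Nod2 and -531.7 at Ripk2. All 16 point the same way, as do 6238 windows called lower against 14 called higher. The median was -403.2 bases over the tested members and -395.7 over all windows tested. KO siNC libraries covered 1.82 to 4.30 Mb and untransfected KO libraries 11.6 to 16.9 Mb, and the part of that difference in these values was not tested.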

How the results depend on the processing

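The counts of 0 called members for untransfected mESCs, siMbd6, siNsun2 and the 3 K-562 comparisons were 0 under each alternative run. For siNC mESCs the 21 became 12 with scaling to equal covered length and 9 with peaks of -log10 q of at least 5, where 9 were tested. Leaving out single libraries gave 6 to 21. For siNC and for the difference of KO effects, the share of all windows under the same alternative is not given here. Those counts therefore do not show whether members held better than other windows. For KO against WT in HSPCs the 3 lower members became 2 higher ones with scaling, 1 with the stricter peaks and 0 without the filter, and 0 to 2 with a library left out, also on the windows tested with all libraries, an alternative chosen after seeing the data. For shMbd6 the 7 higher members became 4 with scaling, 2 higher and 2 lower. They became 3 without the filter, and 4 to 7 with a library left out. For the difference of KO effects the 16 became 9 with scaling and 10 with the stricter peaks, and 14 to 18 with a library left out. Windows of 2 and 10 kb gave 19 and 24 with siNC, 3 and 3 in KO HSPCs, 6 and 7 with shMbd6 and 14 and 18 for the difference of KO effects. Scaling reversed single differences: with siNC, Relb 353.4, Myd88 458.9 and Ripk2 319.2 bases; in KO HSPCs, Irak4 99.08; with shMbd6, Relb -1183, Nfkbib -145.2, Myd88 -22.78, Irak4 -239.7 and Ripk2 -735.2; in the difference of KO effects, Relb 557.8, Myd88 696.3 and Ripk2 445.8. The stricter peaks reversed Nfkbiz there, to 149.3. Scaling divides by each library's own covered length and leaves 0 at 0, so it is no check on members at 0 throughout a group. Why the stricter peaks reversed Nfkbiz was not tested. Members covered in at least 2 untransfected WT libraries numbered 15 with the stricter peaks and 12 when 500 covered bases were asked for, against 26. Replicate numbers were not treated as pairs, since in no comparison did all 3 same-numbered correlations of deviations exceed 0.1: they were 0.165, 0.0192 and 0.017 in untransfected mESCs, 0.109, 0.00839 and 0.0429 for KO against WT with siNC, 0.235, 0.031 and 0.103 for siMbd6, 0.239, 0.0417 and 0.0976 for siNsun2, and between -0.0374 and 0.0275 in HSPCs and K-562 cells. For siMbd6 and siNsun2 each library correlated best with its own number, a hint from the data and not from the design. Replicate 1 also had the lowest covered length in every H2AK119ub group of mESCs. Whether replicate numbers follow a shared preparation was not tested. With a replicate block 23 members were called with siNC, 3 in KO HSPCs, 6 with shMbd6 and 16 in the difference of KO effects. Depth, being unknown, limits every statement about a window at 0.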
